A study of Mus musculus with 10 samples.

Results

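The genes described here encode the structural subunits of the mitochondrial respiratory chain and of ATP synthase. They were selected by symbol: every gene on the array whose symbol begins with Ndufa, Ndufb, Ndufc, Ndufs or Ndufv and a digit, with Uqcr, with Cox4 to Cox8 or with Atp5, together with Sdha to Sdhd, Cyc1 and Cycs, was taken from probe sets that carry exactly 1 symbol. This gave 83 of the 18193 genes with such a probe set. The rule uses symbols and no measured value, although it was set with earlier results of these data known. Where a gene had several probe sets (49 of the 83), the brightest by its mean over all arrays stands for it. The RNA came from epididymal white adipose tissue, the fat pad that lies against the epididymis, of male C57BL/6J mice that were 8 weeks old when the diets began. Of 10 mice, 5 received a high-fat diet with 60% fat and 5 the normal chow CRF-1, each for 8 weeks. Each mouse's RNA was hybridised to its own Affymetrix array, and the spread behind every p-value is that between mice. Changes are log2 differences, high-fat diet minus chow, each given with its standard error (SE), after quantile normalization of the arrays, and a gene was called where its adjusted p in limma was under 0.05.

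The respiratory chain passes electrons from NADH through complex I, and from succinate through complex II, to ubiquinone, then through complex III and the carrier cytochrome c to complex IV, which reduces oxygen. The proton gradient built by complexes I, III and IV drives ATP synthase, complex V. Most subunits are encoded in the nucleus and expressed wherever there are mitochondria, but complex IV has several subunits in exchangeable forms: Cox6a2, Cox7a1 and Cox8b are the forms of heart and skeletal muscle and are also found in brown fat, Cox4i2 is known from lung, and Cox6b2, Cox7b2 and Cox8c from testis. White fat cells hold few mitochondria, and brown and beige fat cells many.

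In whole tissue, fewer cells of a type and less RNA per cell cannot be told apart. Fat cell markers were present in both groups: Adipoq, the adipokine adiponectin, lay between 13.03 and 13.23 in high-fat arrays and between 12.10 and 13.24 in chow arrays. The arrays differed in other cell types as well. The mean log2 level of 10 macrophage markers ran from 10.89 to 11.46 in high-fat arrays and from 7.20 to 8.23 in chow arrays, that of 10 epididymis markers from 3.71 to 6.34 against 7.48 to 12.63, and that of 12 sperm markers from 3.27 to 4.88 against 4.62 to 8.95. The mean of 9 epithelial markers ran from 3.40 to 4.24 in high-fat arrays and from 6.74 to 10.78 in chow arrays, and all 9 were called lower. The mean of 6 smooth muscle markers ran from 6.24 to 7.36 in high-fat arrays and from 8.99 to 12.41 in chow arrays, highest in chow array 1, and all 6 were called lower. Of 6 endothelial markers 0 were called over all 10 arrays. Their mean ran from 8.18 to 8.72 in high-fat arrays and from 7.13 to 9.80 in chow arrays. Without chow arrays 1 and 2, however, all 6 endothelial markers were called lower, where 38.4% of all genes were called in either direction. Chow array 2 had the highest epididymis and sperm means and the lowest adipocyte mean (8 markers, 9.68), and chow array 1 the second highest sperm mean but the lowest epididymis mean of the chow arrays (7.48). The actin control probe sets, which gauge RNA integrity, gave a ratio of 5' over 3' signal of 0.614 ± 0.038 in high-fat arrays and 0.341 ± 0.073 in chow arrays (SD, n = 5 each; 2-sided exact permutation p = 0.00794, the smallest possible). Their part in the results below was not tested. Array medians lay between 17.9 and 27.4 intensity units, and precision is limited by the 5 arrays per group.

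Subunit genes changed little in size. Their median absolute change was 0.20, against 0.50 over all 18193 genes, and 70 of the 83 differed by less than 0.5 in either direction. Of the 83 genes, 8 were called higher on the high-fat diet and 12 lower, together 24.1%, beside 12.9% of all genes called higher, 13.4% lower and 26.3% in either direction. In 16 of the 83 the groups did not overlap, 6 above and 10 below, and this was so for 22.6% of all genes. After quantile normalization the share of subunit genes called was therefore near that of the array as a whole. Subunit genes are mostly bright, however, and 74 of the 83 lay above the median gene. In a fit of only the genes brighter than the median gene, 25.7% of these 74 were called (7 higher and 12 lower). Of all genes in that fit, 38% were called, so among genes above this cut the share of subunit genes was lower. Genes matched to them in brightness were not compared. The median change was -0.02 over the 83 genes and -0.04 over all genes. By complex, 3 of 35 genes were called higher and 8 lower in complex I (median -0.13), 1 and 1 of 4 in complex II (median 0.30), 1 and 1 of 9 in complex III (median -0.02), 2 and 2 of 17 in complex IV (median -0.03), and 1 and 0 of 17 in complex V (median 0.03). Cycs was not called. Genes were assigned to complexes by symbol alone, so Ndufa4 and its paralogue Ndufa4l2 are counted with complex I.

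**Figure D1:**
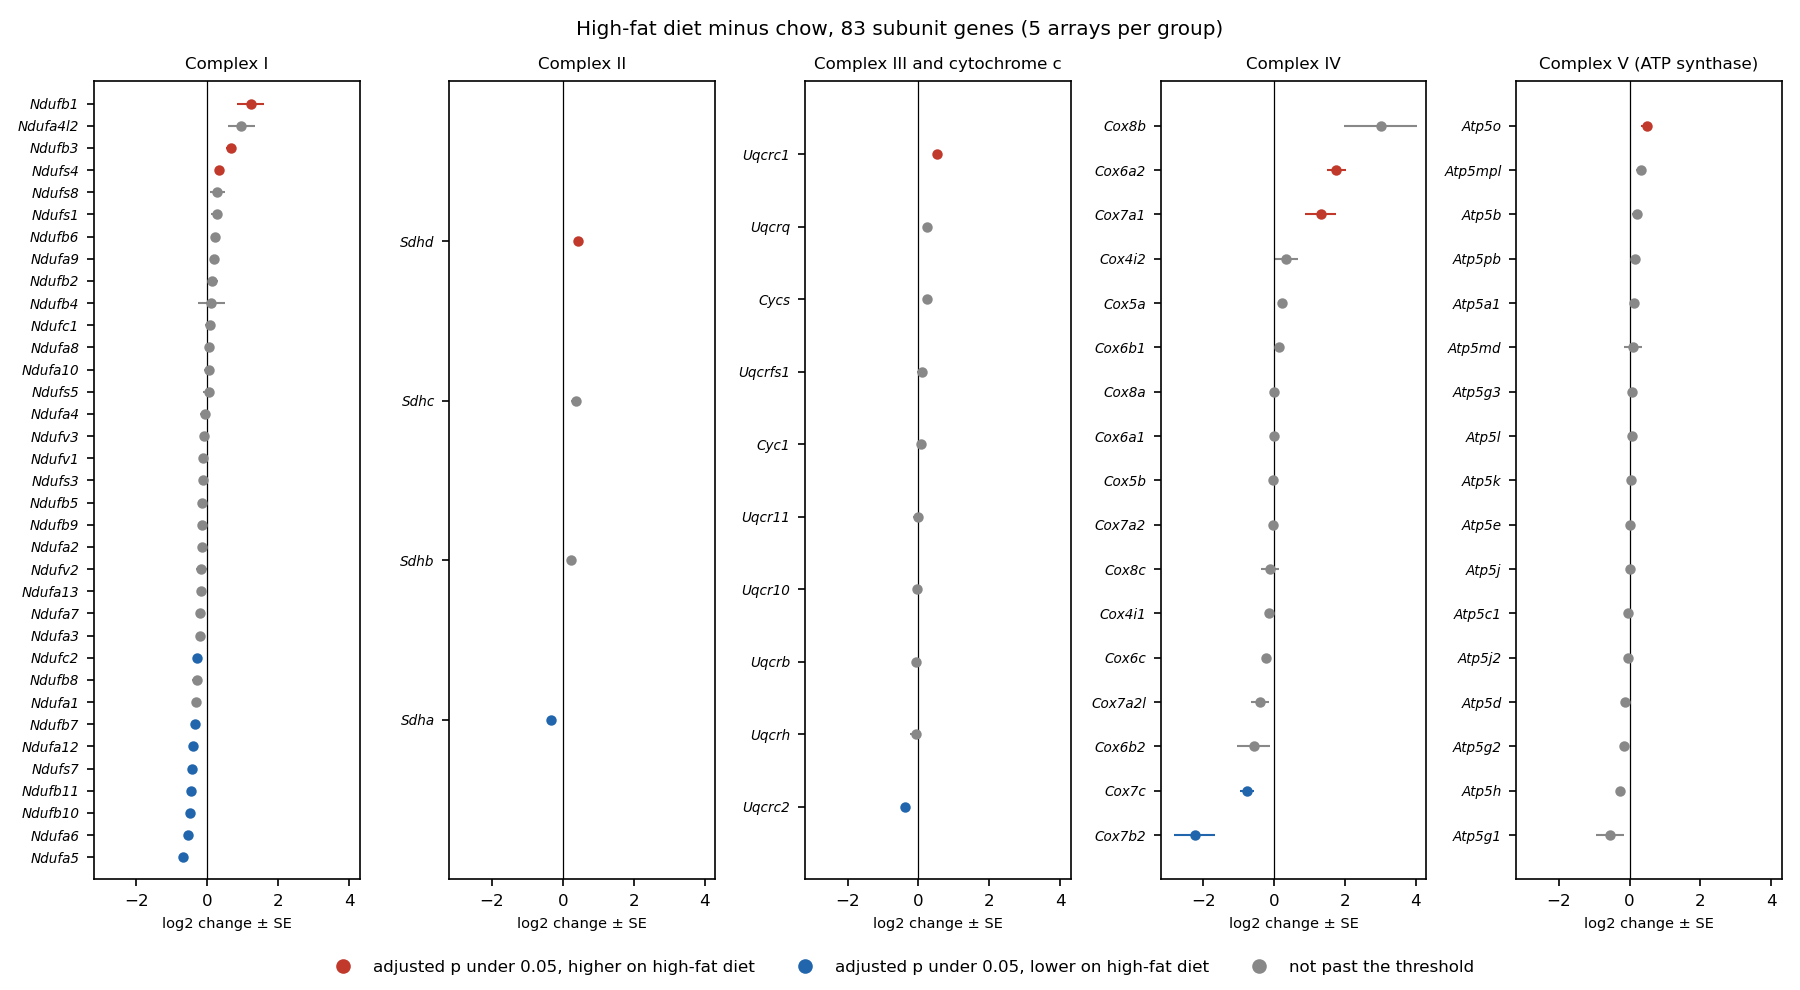
Log2 change on the high-fat diet minus chow (horizontal axis, with SE) for each of the 83 subunit genes. Each panel is 1 complex, assigned by symbol, with cytochrome c beside complex III. Red genes were called higher and blue genes lower after quantile normalization, and most points lie within 0.5 of 0; the blue genes of complexes I, II and III lost their calls under the other scalings of the arrays.

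The direction and the number of the calls depended on how the arrays were scaled. Subunit genes are bright (74 of 83 above the median gene), and the bright end of the deposited intensities was higher in high-fat arrays: the 90th percentile of an array lay 0.31 higher there on the log2 scale, while the median lay 0.14 lower (-0.14). Quantile normalization removes that difference. With the intensities as deposited, the median change of all genes moved by 0.12, and 15 subunit genes were called higher and 1 lower (19.3%), with 23.6% of all genes called. With arrays centred on their medians, the all-gene median moved by 0.25, and 45 were called higher and 2 lower (56.6%), with 32.6% of all genes called. Relative to the median of all genes in the same scaling, the median subunit gene stood at 0.02 after quantile normalization, 0.17 as deposited and 0.17 centred. Of the calls, the share in the higher direction was 40.0%, 93.8% and 95.7% among subunit genes under these scalings, and 49.2%, 64.2% and 74.9% among all genes. Called under all 3 scalings were Cox6a2, Cox7a1, Ndufb3, Ndufs4, Sdhd, Uqcrc1 and Atp5o as higher and Cox7b2 as lower. The other 12 were not called under at least 1 scaling, although each of the 20 kept its sign relative to the median of all genes.

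**Figure D2:**
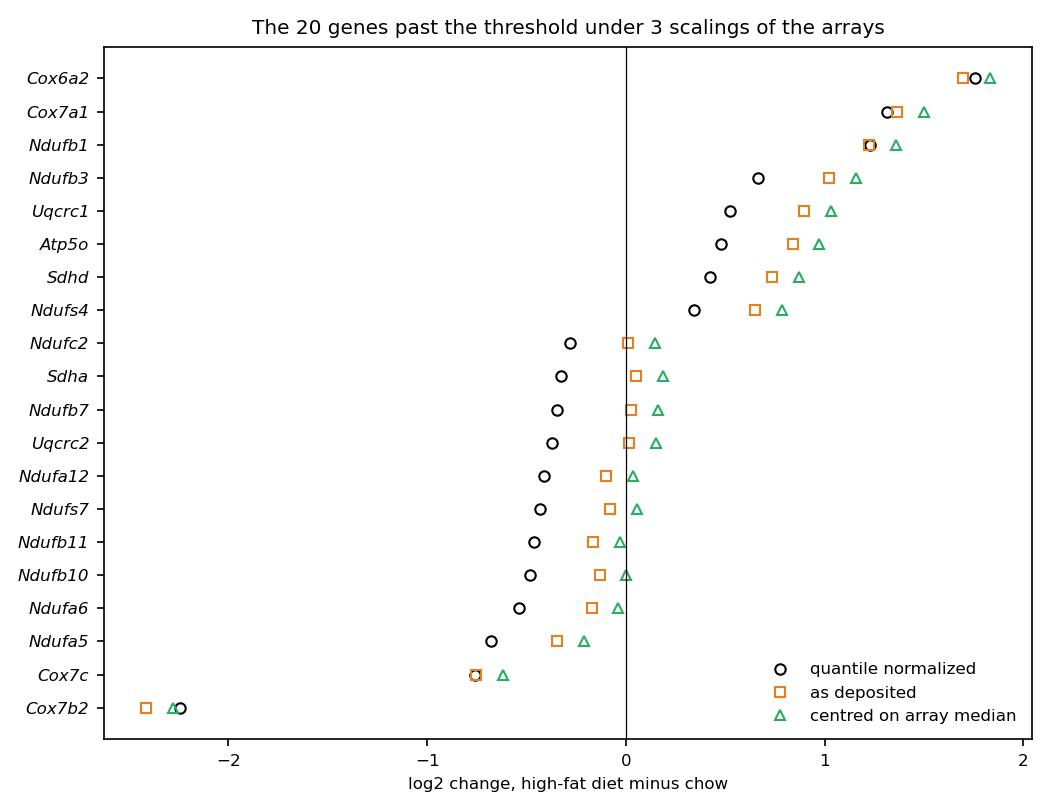
Log2 change on the high-fat diet minus chow (horizontal axis) of the 20 called genes after quantile normalization (circles), as deposited (squares) and centred on array medians (triangles). The 8 genes called higher stay above 0 under all 3 scalings, while Ndufc2, Sdha, Ndufb7 and Uqcrc2 move from below 0 to above it under both others, and Ndufa12, Ndufs7 and Ndufb10 when centred.

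Leaving out chow arrays 1 and 2 gave 15 subunit genes higher and 13 lower (33.7%), where 38.4% of all genes were called. With the mean of the epididymis and sperm markers as a covariate, 2 subunit genes were called, Cox6a2 at 2.43 (adjusted p = 0.018) and Ndufb8 at -0.82 (adjusted p = 0.028), and 6.24% of all genes. That mean was lower in every high-fat array than in any chow array, so diet and these markers cannot be told apart in these 10 arrays. Changes fitted with this covariate extrapolate beyond the marker levels of at least 1 group.

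In complex I the called falls were all but 1 in accessory subunits. Of the 6 nuclear-encoded core subunit genes measured, 0 were called higher and 1 lower. Of the 29 other genes given to complex I by symbol, 3 were called higher and 7 lower. These 29 include Ndufa4 and Ndufa4l2, which were counted here by symbol alone and were not called. Ndufa5, an accessory subunit of the peripheral arm, had log2 levels of 9.75, 9.70, 9.61, 9.64 and 9.58 in high-fat arrays, against 10.68, 10.30, 10.20, 10.27 and 10.24 in chow arrays. The groups did not overlap, with every high-fat array lower, and chow array 1 was the highest. Ndufa5 fell by 0.68 (SE 0.11, adjusted p = 0.0011), and its other probe set fell by 0.62 (adjusted p = 0.017 over all probe sets, of which 17.9% were called). Ndufa6, a member of the LYR protein family, had 10.38, 10.48, 10.46, 10.42 and 10.44 in high-fat arrays, against 11.24, 11.08, 10.93, 10.85 and 10.78 in chow arrays. The groups again did not overlap, and Ndufa6 fell by 0.54 (SE 0.10, adjusted p = 0.0034). Of the membrane arm, Ndufb10 had 10.06, 10.05, 9.94, 9.77 and 10.01 in high-fat arrays, against 10.70, 10.43, 10.45, 10.36 and 10.30 in chow arrays. Ndufb10 fell by 0.48 (SE 0.10, adjusted p = 0.0063) and Ndufb11, a membrane-arm subunit encoded on the X chromosome, fell by 0.46 (SE 0.11, adjusted p = 0.011), both without overlap of the groups. Ndufs7, the core subunit that carries the last iron-sulphur cluster before ubiquinone, fell by 0.43 (SE 0.12, adjusted p = 0.019) and was not called without high-fat array 3 (adjusted p = 0.051). Ndufa12, Ndufb7 and Ndufc2 fell by 0.41, 0.34 and 0.28. Ndufa12 was not called without high-fat arrays 3 or 5 (adjusted p up to 0.057), Ndufb7 was called only without chow array 3 (adjusted p up to 0.10 without any other), and Ndufc2 only without high-fat array 4 or chow arrays 2 or 5 (adjusted p up to 0.079).

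None of these 8 falls was called with the arrays as deposited or centred. Ndufa5 stood at -0.35 as deposited (adjusted p = 0.13) and -0.21 centred (adjusted p = 0.17), Ndufa6 at -0.17 and -0.04, and Ndufb11 at -0.17 and -0.03. Relative to the median of all genes, Ndufa5 was at -0.64, -0.42 and -0.42 under quantile normalization, as deposited and centred, and Ndufa6 at -0.50, -0.25 and -0.25.

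Among the genes of complex I that rose, Ndufb3, a membrane-arm subunit, had 11.30, 11.21, 10.97, 11.04 and 11.00 in high-fat arrays, against 10.74, 10.28, 10.18, 10.51 and 10.50 in chow arrays. The groups did not overlap. Ndufb3 rose by 0.66 (SE 0.12, adjusted p = 0.0030), and it kept its call in 23 of 24 alternative settings, losing it with the epididymis and sperm covariate. Ndufb1 had 6.02, 6.13, 6.79, 6.02 and 6.68 in high-fat arrays, against 5.59, 6.27, 4.14, 5.03 and 4.47 in chow arrays. Chow array 2 lay within the high-fat range. Ndufb1 rose by 1.23 (SE 0.39, adjusted p = 0.038), with a bare miss as deposited (1.22, adjusted p = 0.052), and it kept its call without chow array 1 or 2 and lost it without any of the other 8 (adjusted p up to 0.093). Ndufs4, an accessory subunit whose loss causes a Leigh-like encephalopathy in mice, rose by 0.34 (SE 0.11, adjusted p = 0.044) and behaved likewise (adjusted p up to 0.097). The core subunits of the flavoprotein and iron-sulphur fractions were not called: Ndufv1 stood at -0.12, Ndufv2 at -0.16, Ndufs1 at 0.26, Ndufs3 at -0.13 and Ndufs8 at 0.28. The probe sets of Ndufv2 disagreed, since the pair of dimmer ones gave -0.78 and -0.46 (adjusted p = 0.0013 and 0.010 over all probe sets).

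Complex II, which is also the succinate dehydrogenase of the citric acid cycle, was measured in all of its 4 subunits. Its called members went opposite ways by the brightest probe set of each gene. Sdhd, a membrane anchor, had 9.81, 9.79, 9.74, 9.89 and 9.78 in high-fat arrays, against 9.36, 9.27, 9.26, 9.59 and 9.42 in chow arrays. All high-fat arrays lay above all chow arrays, and Sdhd rose by 0.42 (SE 0.09, adjusted p = 0.0062); it lost that call only with the covariate. Sdha, the flavoprotein that oxidises succinate, had 10.82, 10.96, 10.64, 10.97 and 10.72 in high-fat arrays, against 11.16, 10.93, 11.19, 11.24 and 11.22 in chow arrays. Chow array 2 lay within the high-fat range. Sdha fell by 0.33 (SE 0.10, adjusted p = 0.041), stood at 0.05 as deposited and 0.19 centred, and kept its call without high-fat array 4 or chow array 2 but lost it without any of the other 8 arrays (adjusted p up to 0.10). With the mean of its 4 probe sets in place of the brightest, the change of Sdha was positive and not called. Sdhb and Sdhc, the iron-sulphur subunit and the other anchor, stood at 0.24 (adjusted p = 0.098) and 0.36 (adjusted p = 0.071).

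Complex III showed the same contrast within its pair of core proteins, again by the brightest probe set of each gene. Uqcrc1 had 10.90, 10.95, 10.92, 11.28 and 10.99 in high-fat arrays, against 10.60, 10.48, 10.24, 10.54 and 10.56 in chow arrays, without overlap. Uqcrc1 rose by 0.52 (SE 0.11, adjusted p = 0.0055) and lost the call only with the covariate. Uqcrc2 had 10.78, 10.64, 10.53, 10.58 and 10.59 in high-fat arrays, against 11.19, 10.75, 11.03, 11.09 and 10.93 in chow arrays, with chow array 2 within the high-fat range. Uqcrc2 fell by 0.37 (SE 0.10, adjusted p = 0.023); it stood at 0.02 as deposited and 0.15 centred, and was not called without high-fat arrays 3, 4 or 5 or chow array 4 (adjusted p up to 0.060). The catalytic subunits Cyc1, which carries haem, and Uqcrfs1, the Rieske iron-sulphur protein, stood at 0.06 and 0.10. Cycs, cytochrome c itself, stood at 0.23 (SE 0.11, adjusted p = 0.14) by its brightest probe set, while its other 3 probe sets rose by 0.43, 0.41 and 1.03 (adjusted p = 0.048, 0.017 and 0.037 over all probe sets). Over the 169 probe sets of the 83 genes, 14 were called higher and 15 lower.

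Since a difference between genes of 1 array does not depend on a constant scaling, 3 pairs of oppositely called genes were also set against each other, chosen after their values were seen and given with no test. The log2 ratio of Uqcrc1 to Uqcrc2 lay between 0.11 and 0.71 in high-fat arrays and between -0.79 and -0.27 in chow arrays. That of Sdhd to Sdha, each by its brightest probe set, lay between -1.16 and -0.90 in high-fat arrays and between -1.93 and -1.65 in chow arrays. That of Ndufb3 to Ndufa5 lay between 1.36 and 1.55 in high-fat arrays and between -0.02 and 0.26 in chow arrays. The differences between groups were 0.90, 0.75 and 1.34 after quantile normalization and 0.88, 0.68 and 1.37 as deposited, and their direction was fixed by the choice of the pairs.

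**Figure D3:**
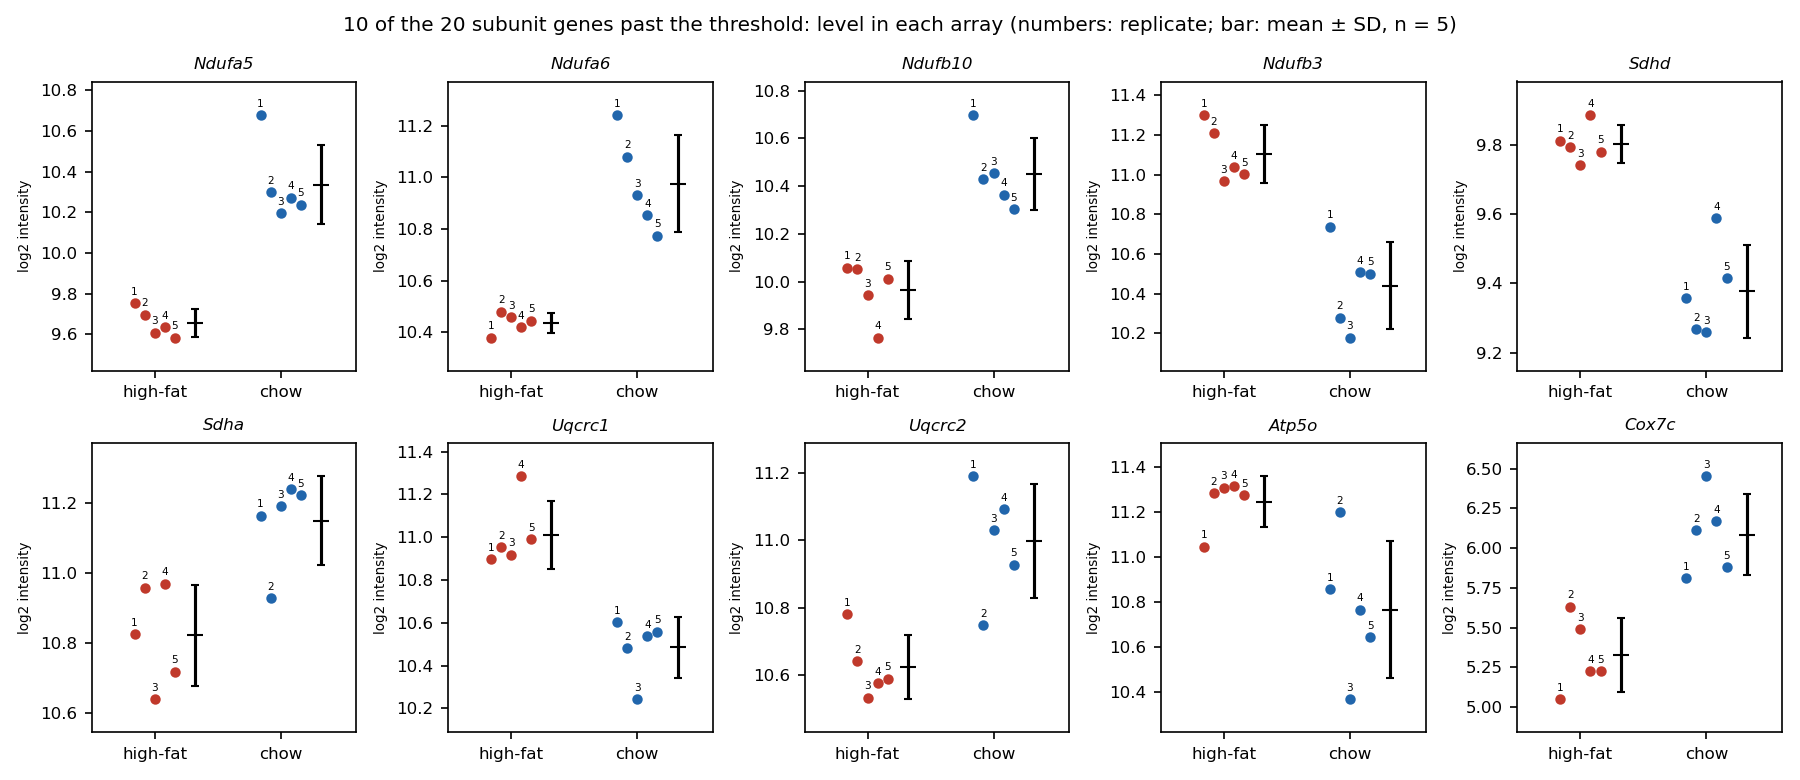
Log2 intensity (vertical axis) in each array for 10 of the 20 called genes, high-fat arrays in red and chow arrays in blue, numbered by replicate, with mean and SD (n = 5). High-fat arrays lie apart from all chow arrays for Ndufa5, Ndufa6, Ndufb10, Ndufb3, Sdhd, Uqcrc1 and Cox7c, and chow array 2 meets the high-fat range for Sdha, Uqcrc2 and Atp5o; the falls of Ndufa5, Ndufa6, Ndufb10, Sdha, Uqcrc2 and Cox7c were not called with the arrays as deposited.

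The 10 genes of complex IV that are not tissue isoforms had a median change of -0.03, with 0 called higher and 1 lower. Cox4i1, Cox5b, Cox6a1, Cox6b1, Cox7a2 and Cox8a all stood between -0.15 and 0.13. Cox5a, which binds next to the catalytic core, lay above all chow arrays in every high-fat array but was not called (0.22). Cox7c had 5.05, 5.63, 5.49, 5.22 and 5.23 in high-fat arrays, against 5.81, 6.11, 6.45, 6.17 and 5.88 in chow arrays, without overlap. Cox7c fell by 0.76 (SE 0.19, adjusted p = 0.015), but as deposited the change of -0.76 was not called (adjusted p = 0.053), and a dimmer probe set, used when those that may cross-match were left out, gave -0.26 (adjusted p = 0.57). In ATP synthase, 16 of the 17 genes were not called after quantile normalization, whereas 12 were called with the arrays centred. Its catalytic subunits Atp5a1 and Atp5b stood at 0.11 and 0.20. Atp5o, the stalk subunit named for oligomycin sensitivity, had 11.04, 11.28, 11.31, 11.31 and 11.27 in high-fat arrays, against 10.86, 11.20, 10.37, 10.76 and 10.64 in chow arrays. Chow array 2 lay above high-fat array 1. Atp5o rose by 0.48 (SE 0.15, adjusted p = 0.032), its other probe set rose by 0.60 (adjusted p = 0.0049 over all probe sets), and the call held without high-fat array 1 or chow arrays 1 or 2 and was lost without any other (adjusted p up to 0.072). Atp5h, a peripheral stalk subunit, lay below all chow arrays in every high-fat array without being called (-0.26, adjusted p = 0.058).

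The widest changes were among isoforms of restricted tissue distribution. The 8 such genes (Cox4i2, Cox6a2, Cox6b2, Cox7a1, Cox7b2, Cox8b, Cox8c and Ndufa4l2) had a median absolute change of 1.13, against 0.16 for the other 75 and 0.50 for all genes. Of the 8, 2 were called higher and 1 lower, beside 12.9% and 13.4% of all genes. They are dim, with mean log2 levels between 2.65 and 7.10. The other 75 were brighter except Ndufb1, Cox7c and Ndufb4, which changed by 1.23, -0.76 and 0.11. The part of brightness in this contrast was not tested. Cox6a2, the muscle form of subunit 6a, had 5.61, 6.05, 6.08, 5.49 and 6.15 in high-fat arrays, against 3.57, 4.74, 4.28, 4.05 and 3.97 in chow arrays. Every high-fat array lay above every chow array. Cox6a2 rose by 1.75 (SE 0.27, adjusted p = 0.00086), its second probe set rose by 2.85 (adjusted p = 0.0047 over all probe sets), and it was called in all 23 alternative settings that could be run for it. Cox7a1, the muscle form of subunit 7a, had 6.87, 6.83, 6.57, 6.72 and 6.86 in high-fat arrays, against 6.93, 5.75, 4.07, 5.58 and 4.97 in chow arrays. Chow array 1 was the highest of all 10 and the other 4 chow arrays lay below every high-fat array. Cox7a1 rose by 1.31 (SE 0.43, adjusted p = 0.043), was called at 1.90 without chow arrays 1 and 2 (adjusted p = 0.00053), and lost its call without any 1 array other than these (adjusted p up to 0.086).

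Cox8b, the muscle and brown fat form of subunit 8, had the largest change of the 83 over all 10 arrays, which rested on chow array 2. It had 8.55, 8.97, 8.08, 8.80 and 8.61 in high-fat arrays, against 7.15, 0.94, 5.66, 7.06 and 7.17 in chow arrays. All high-fat arrays were above all chow arrays, and chow array 2, which had the lowest adipocyte markers and the highest epididymis and sperm markers, lay far below the other 4. The difference of 3.0 (SE 1.04, adjusted p = 0.055) was not called; without chow array 2 the change was 1.84 (adjusted p = 0.0017), below that of Cox6a2 (1.91), and without chow arrays 1 and 2 it was 1.97 (adjusted p = 0.00093). With the covariate it stood at -1.99 (adjusted p = 0.22).

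Markers of brown fat and of muscle were examined beside these genes. The mean of 5 brown fat markers ran from 3.99 to 4.73 in high-fat arrays and from 3.19 to 4.88 in chow arrays; 2 of the 5 were called higher, Otop1 at 5.05 and Dio2 at 1.23 (not called as deposited, adjusted p = 0.058), and 0 lower, where 12.9% of all genes were called higher. The median of the 5 was -0.18, with Ucp1 at -1.83, Cidea at -0.24 and Elovl3 at -0.18, none of them called. Ucp1, the uncoupling protein that defines brown fat, lay between -0.56 and 0.69 in high-fat arrays and between -0.39 and 6.21 in chow arrays, near the floor in most. The mean of 10 striated muscle markers ran from 2.58 to 3.67 in high-fat arrays and from 2.99 to 4.79 in chow arrays, with Myh1 and Myh2 called higher, Myh1 not as deposited (adjusted p = 0.12), and Tnnc2 lower. Ckm, muscle creatine kinase, lay between 3.38 and 4.48 in high-fat arrays and between 4.09 and 9.93 in chow arrays, highest in chow array 1. The part of other cells in the isoform changes was not tested.

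Cox7b2, the testis form of subunit 7b, had 1.75, 0.60, 0.92, 2.41 and 1.97 in high-fat arrays, against 3.02, 5.65, 3.84, 3.13 and 3.25 in chow arrays. The groups did not overlap, levels were low, and chow array 2, with the highest sperm markers, was the highest. Chow array 1, with the second highest sperm mean (7.01), was the lowest of the chow arrays for Cox7b2 (3.02). Cox7b2 fell by 2.24 (SE 0.58, adjusted p = 0.016); the call was lost on the log2(value + 16) scale, which damps dim probe sets (-0.71, adjusted p = 0.062), and with the epididymis and sperm covariate (-0.26, adjusted p = 0.90). Cox6b2 and Cox8c, the other testis forms, stood at -0.58 and -0.12, with their highest levels in chow array 2 (6.97 and 7.10). Atp5g1 and Cox7a2l, a factor that joins complexes III and IV into supercomplexes, stood at -0.56 and -0.40 and were likewise highest in chow array 2 (11.07 and 11.57), with chow array 1 next. Cox4i2 stood at 0.35 (SE 0.34). Ndufa4l2, a paralogue of Ndufa4 known to be induced by hypoxia, had 6.34, 5.49, 6.03, 6.17 and 6.05 in high-fat arrays, against 3.81, 4.76, 5.04, 5.80 and 5.88 in chow arrays. High-fat array 2 lay within the chow range, and the difference of 0.96 (SE 0.38, adjusted p = 0.087) was not called.

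**Figure D4:**
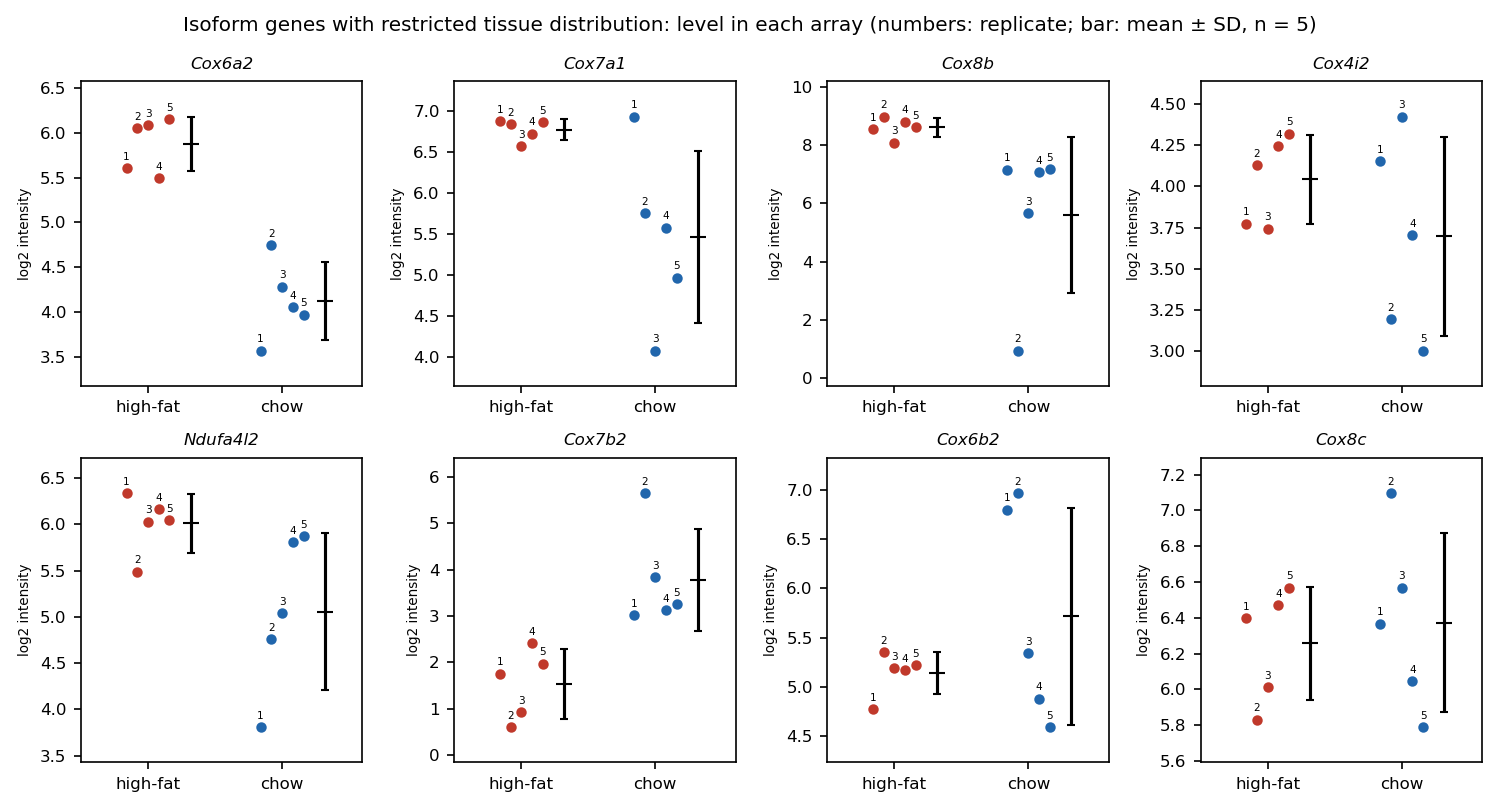
Log2 intensity (vertical axis) in each array for the 8 tissue isoform genes, high-fat arrays in red and chow arrays in blue, numbered by replicate, with mean and SD (n = 5). High-fat arrays lie above all chow arrays for Cox6a2 and Cox8b and below all of them for Cox7b2, and chow array 2 is the low point of Cox8b and the high point of Cox7b2, Cox6b2 and Cox8c.

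Each isoform was then compared with its widely expressed partner within the same array, over 10 pairs, with a 2-sided exact permutation test and Benjamini-Hochberg adjustment over the pairs. The ratio of Cox6a2 to Cox6a1 was higher in every high-fat array (-7.49 to -6.71) than in any chow array (-9.41 to -8.05), a difference of 1.77 (exact permutation p = 0.00794, the smallest possible, adjusted 0.040). The ratio of Cox8b to Cox8a was also higher in every high-fat array (-3.33 to -2.71) than in any chow array (-10.67 to -4.55), a difference of 3.01 (exact permutation p = 0.00794, adjusted 0.040). Without chow arrays 1 and 2 this difference was 1.95 and the adjusted exact p of both ratios was 0.060. With 5 against 3 arrays the smallest exact permutation p is 0.0179, and with 3 pairs at it no adjusted value below 0.0595 was possible. Both stayed past the threshold without any single chow array (adjusted p up to 0.040) and not without any single high-fat array (adjusted p up to 0.13). With 1 array left out, a pair alone at the smallest exact permutation p cannot have an adjusted value below 0.0794. Cox6a2 to Cox6a1 stood at that limit without high-fat array 1 or 4, so the lost call there does not measure a weaker difference. Without single high-fat arrays its difference ran from 1.68 to 1.87. The ratios of Cox7a1 to Cox7a2 and of Ndufa4l2 to Ndufa4 differed by 1.35 and 1.03 (exact permutation p = 0.024 for both, adjusted 0.060), past the threshold only before adjustment. Without chow arrays 1 and 2, Ndufa4l2 to Ndufa4 stood at 0.48. In Cox7a1 to Cox7a2, chow array 1 (-5.83) lay within the high-fat range of -6.01 to -5.67. The other 6 pairs had adjusted values of 0.35 or more: Cox4i2 to Cox4i1 differed by 0.50, Cox6b2 to Cox6b1 by -0.71, Cox7a2l to Cox7a2 by -0.36, Cox8c to Cox8a by -0.11, and Atp5g1 and Atp5g2 to Atp5g3 by -0.62 and -0.21. Without chow arrays 1 and 2, the 5 negative differences changed sign, to 0.07, 0.03, 0.10, 0.12 and 0.01 in the same order. Leaving out single arrays moved Cox6b2 to Cox6b1 between -1.01 and -0.37, Cox7a2l to Cox7a2 between -0.51 and -0.09, Cox8c to Cox8a between -0.28 and 0.07, and Atp5g1 to Atp5g3 between -0.90 and -0.29. Atp5g1, Atp5g2 and Atp5g3 encode the same mature ring protein of ATP synthase with different import peptides. These ratios give unequal change of a pair of probe sets and not the protein make-up of complex IV.

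**Figure D5:**
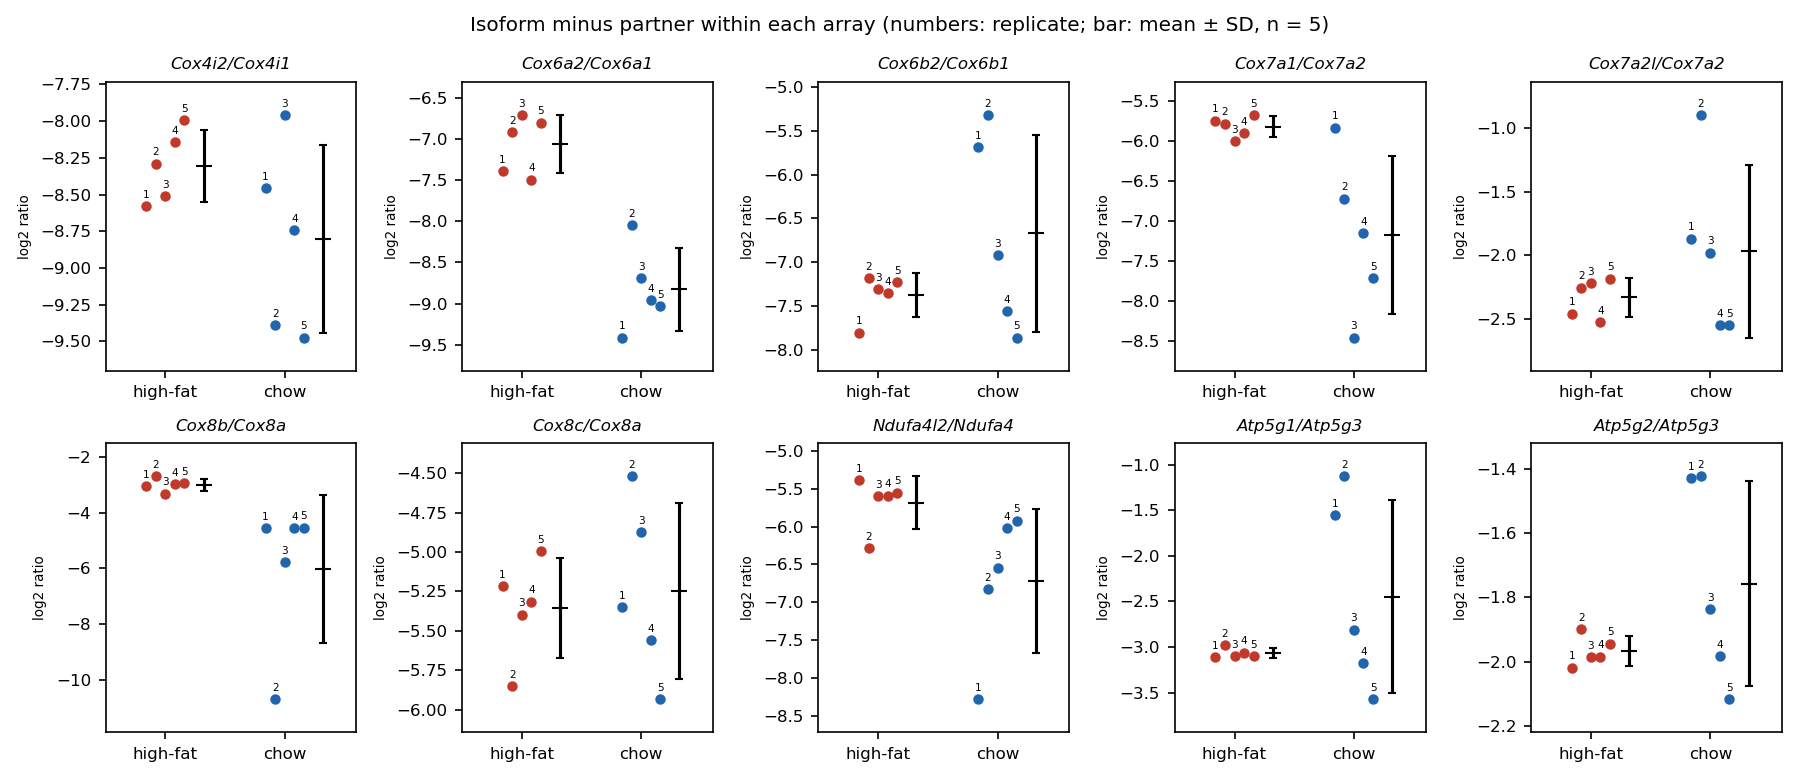
Log2 ratio of each isoform to its partner within an array (vertical axis) for 10 pairs, high-fat arrays in red and chow arrays in blue, numbered by replicate, with mean and SD (n = 5). High-fat arrays lie above all chow arrays for Cox6a2 to Cox6a1 and Cox8b to Cox8a, and overlap them in the other 8 pairs.

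Promoter windows from 250 bases before to 50 after the annotated start were found in RefSeq (GRCm38.p6) for 67 of the 83 genes. Printed here are the windows of Cox8b, whose ratio to its partner differed most, and of Cox7a1, whose ratio missed the threshold after adjustment, each with its widely expressed partner. Cox6a2 was not in the table. Cox8b lies at chr7:140900397-140900696 on the minus strand, Cox8a at chr19:7217567-7217866 on the minus strand, Cox7a1 at chr7:30183921-30184220 on the plus strand, and Cox7a2 at chr9:79759804-79760103 on the minus strand. Each is written 5′ to 3′ along the gene, with matches to the motifs searched in capitals.
Cox8b: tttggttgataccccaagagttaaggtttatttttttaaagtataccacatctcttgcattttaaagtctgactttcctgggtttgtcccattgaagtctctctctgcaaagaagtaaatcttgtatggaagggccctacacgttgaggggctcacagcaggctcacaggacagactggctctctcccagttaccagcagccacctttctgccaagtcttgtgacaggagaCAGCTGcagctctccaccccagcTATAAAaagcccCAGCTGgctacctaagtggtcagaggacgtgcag
Cox8a: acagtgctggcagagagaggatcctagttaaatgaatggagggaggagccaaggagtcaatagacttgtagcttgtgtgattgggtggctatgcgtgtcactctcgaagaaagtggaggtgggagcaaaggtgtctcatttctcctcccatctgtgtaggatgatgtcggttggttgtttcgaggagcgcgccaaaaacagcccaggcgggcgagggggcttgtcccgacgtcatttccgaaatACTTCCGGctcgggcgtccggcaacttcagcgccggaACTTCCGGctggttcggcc
Cox7a1: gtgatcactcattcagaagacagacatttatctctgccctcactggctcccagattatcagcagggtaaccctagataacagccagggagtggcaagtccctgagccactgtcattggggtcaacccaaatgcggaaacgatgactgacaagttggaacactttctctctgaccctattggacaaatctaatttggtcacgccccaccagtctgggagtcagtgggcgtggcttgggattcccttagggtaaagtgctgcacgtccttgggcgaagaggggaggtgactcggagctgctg
Cox7a2: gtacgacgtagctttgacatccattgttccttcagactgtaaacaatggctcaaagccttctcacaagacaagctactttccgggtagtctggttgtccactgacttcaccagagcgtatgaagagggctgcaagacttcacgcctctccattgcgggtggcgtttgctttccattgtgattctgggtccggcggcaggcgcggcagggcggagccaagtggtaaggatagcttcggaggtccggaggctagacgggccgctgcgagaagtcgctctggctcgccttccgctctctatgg
Of 6 motifs searched on both strands, Cox8b held a TATA box (TATAAA) beginning 5 bases after the annotated start and the E box CAGCTG at -19 and 17. Cox8a held the ETS site CCGGAAGT, which GABPA binds, on the opposite strand at -6 and 32. Neither window of the subunit 7a pair held a match. Over the 67 windows, the NRF1 core GCGCATGC was found in 14.9% (2.8% of all 27025 promoters in the table), the ETS site in 7.46% (4.0%), the YY1 site AAGATGGC in 11.9% (2.88%), the oestrogen-related receptor element TCAAGGTCA in 2.99% (0.407%), TATAAA in 11.9% (14.2%) and CAGCTG in 8.96% (16.1%). The 10 windows with the NRF1 core all belonged to genes other than the tissue isoforms, of which 4 had a window. The median share of G and C bases was 58.7% in the 67 windows, 50.8% in these 4 and 52.7% in all promoters. Its part in the motif shares was not tested. A match describes these letters and no binding.

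Assembly factors and regulators of the respiratory chain were summarised from lists chosen with earlier results of these data known. Of 15 complex I assembly factors, 4 were called higher and 1 lower (median 0.16), where 12.9% of all genes were called higher and 13.4% lower. In this and the lists that follow the counts are to be read against those shares. Tmem126b and Acad9, members of the intermediate assembly complex, rose by 1.19 (SE 0.29, adjusted p = 0.011) and 0.93 (SE 0.17, adjusted p = 0.0024), and Nubpl, which delivers iron-sulphur clusters, rose by 0.71 (SE 0.16, adjusted p = 0.0080). Of 10 factors for complexes II and III, 2 were called higher and 1 lower (median 0.24). Sdhaf3, which matures the iron-sulphur subunit of complex II, averaged 8.69 ± 0.13 in high-fat arrays and 7.46 ± 0.17 in chow arrays, and Sdhaf4, which acts on its flavoprotein, averaged 9.90 ± 0.10 and 8.94 ± 0.38 in the same order (SD, n = 5 each). All high-fat arrays lay above all chow arrays for both. Sdhaf3 rose by 1.23 (SE 0.12, adjusted p = 4.67e-05) and Sdhaf4 rose by 0.96 (SE 0.17, adjusted p = 0.0019), while Uqcc3, a complex III factor, fell by 0.40 and was not called without high-fat array 4 (adjusted p = 0.053). Of 21 factors for complexes IV and V, 4 were called higher and 2 lower (median 0.19). Cox19, a factor of the intermembrane space in copper handling, rose by 1.27 (SE 0.20, adjusted p = 0.00093), Atpaf2, which assembles the catalytic head of ATP synthase, rose by 0.98, and Higd2a by 0.50. The 8 rises named here were called under all 3 scalings and the fall of Uqcc3 was called only after quantile normalization. With the epididymis and sperm covariate, Sdhaf3, Sdhaf4 and Acad9 kept their calls (adjusted p = 0.020, 0.029 and 0.039), and the other 5 rises did not.

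Of 17 regulators, 0 were called higher and 5 lower, beside 12.9% and 13.4% of all genes; their median was -0.28 after quantile normalization, -0.06 as deposited and 0.08 centred. Ppargc1a, the coactivator PGC-1α that drives mitochondrial biogenesis, averaged 4.05 ± 0.49 in high-fat arrays and 5.66 ± 0.64 in chow arrays (SD, n = 5 each). Ppargc1a fell by 1.61 (SE 0.36, adjusted p = 0.0075) without overlap of the groups. Ppara, a nuclear receptor for fatty acids, fell by 1.19 (SE 0.30, adjusted p = 0.013), and Twnk, the helicase of mitochondrial DNA replication, fell by 0.88 (SE 0.11, adjusted p = 0.00028). These 3 falls were called under all 3 scalings and lost their calls with the covariate (adjusted p = 0.12, 0.12 and 0.056). Of the 13 subunits encoded in mitochondrial DNA, ND5, a proton-pumping subunit of complex I, had a named probe set used here. ND5 averaged 12.72 ± 0.23 in high-fat arrays and 13.26 ± 0.11 in chow arrays (SD, n = 5 each) and fell by 0.53 (SE 0.13, adjusted p = 0.014) without overlap; as deposited the change of -0.45 was not called (adjusted p = 0.064). Of 19 genes of mitochondrial mass and structure, 3 were called higher and 2 lower (median 0.01). Timm44, a subunit of the protein import motor, fell by 0.77 (SE 0.09, adjusted p = 0.00022) and was called lower under all 3 scalings. The cristae organiser Immt rose by 0.48 (SE 0.13, adjusted p = 0.018), also under all 3. Mfn1, an outer membrane fusion protein, fell by 0.47 (SE 0.11, adjusted p = 0.011) and was not called as deposited (-0.22) or centred (-0.09).

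Replicates of the high-fat group varied less than those of the chow group. Over the 83 genes the median SD was 0.083 in high-fat arrays and 0.195 in chow arrays, and it was larger in chow for 74; over all genes the medians were 0.271 and 0.573. Among the 75 genes that are not tissue isoforms, chow array 1 was the highest of the 5 chow arrays for 41, and chow array 3 the lowest for 38. High-fat array 3 was the lowest of its group for 32.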

How the data were processed

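Total RNA of each mouse's fat pad was labelled and hybridised to 1 Affymetrix mouse array, per the labels' protocols. The deposited table holds the authors' linear intensity of 45101 probe sets in each of 10 arrays; their summary algorithm, scaling and genome build: not given in the sources used here. No detection calls were used. Intensities were log2 transformed, quantile normalized and raised to a floor at their 5th percentile. The platform annotation gave genes: 34945 probe sets had 1 symbol and 932 several, which were left out. No filter on low values was applied, so all 83 subunit genes were tested.

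The fit used limma 3.58.1 under R 4.3.3 (lmFit, eBayes with a trend) with Benjamini-Hochberg adjustment over 18193 genes. For isoform ratios, all 252 arrangements of the arrays were enumerated (exact permutation, 2-sided). The members, lists, pairs and the alternatives on chow arrays 1 and 2 and on the covariate were chosen with earlier results of these data known. Genes were named with values by rule: the largest called changes per complex, all isoform pairs, all of complex II, the nuclear-encoded core of complex I, Atp5a1, Atp5b, Cyc1, Cycs and Uqcrfs1, and up to 3 called genes per pathway list; Ndufa12, Ndufb7, Ndufb8, Ndufc2, Cox5a, Cox5b and Atp5h were named after their values were seen. Equal replicate numbers did not pair the mice: the correlation of their deviations ran from -0.020 to 0.008. The procedure was tested on simulated data.

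Cox7b, Ndufs6 and Ndufa11 had no probe set with a single symbol and were not used here. Ndufb4 is represented by a dim probe set, since brighter ones carry several symbols. The probe sets that stand for Ndufb1 and Cox7c are dim as well, each with a mean log2 level of 5.7.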

Additional observations from a re-analysis of the deposited data

Results flagged for a closer look

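Values of the named subunit genes and ratios were examined for an array far from the other 4 of its group by Dixon's gap test. Of 110 groups tested, 11 had such an array, and chance alone gives about 1 in 20. Chow array 2 accounts for 5 of the 11. In it Cox8b stood at 0.94, where the other chow arrays ran from 5.66 to 7.17, and the ratio of Cox8b to Cox8a at -10.67, against -5.79 to -4.55. It was also low for Sdha (10.93), Cox6a1 (12.79) and Atp5b (11.6). Chow array 1 was high for Ndufa5 (10.68). Among high-fat arrays, array 4 was high for Uqcrc1 (11.28), array 3 low for Cox6a1 (12.79), array 1 low for Atp5o (11.04) and for the ratio of Cox6b2 to Cox6b1 (-7.8), and array 2 low for the ratio of Ndufa4l2 to Ndufa4 (-6.29).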

How the results depend on the processing

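Quantile normalization, the floor and the brightest probe set stand behind 4780 called genes in all, 8 subunit genes called higher and 12 lower (11 in complex I, 2 in II, 2 in III, 4 in IV, 1 in V, 0 for cytochrome c), and 5, 3, 6, 5 and 5 called genes among the factors of complex I, of II and III, of IV and V, the genes of mitochondrial structure and the regulators. The values below are counts that left 1.5 times of these, and sign changes of genes called under either setting, and except where fewer arrays or genes entered by construction the cause was not tested. Of the 20 called subunit genes, 8 kept the call and 16 the sign as deposited, and 10 and 13 when centred; of the 63 not called, 8 and 37 became called and 24 and 29 changed sign. As deposited, 15 subunit genes were called higher and 1 lower, 5 in complex I and 2 in V, with 3 regulators. Centred, 45 were higher and 2 lower, 17 in complex I, 6 in III, 8 in IV, 12 in V and 1 for cytochrome c, with 9, 6 and 10 assembly factors in the order above and 12 genes of mitochondrial structure. Sign changes as deposited were Ndufb7 (0.028), Ndufc2 (0.013), Sdha (0.051) and Uqcrc2 (0.016). Sign changes when centred were Atp5c1 (0.32), Atp5j2 (0.36), Cox8a (0.43), Ndufa12 (0.034), Ndufa2 (0.33), Ndufb10 (0.0027), Ndufb7 (0.16), Ndufc2 (0.15), Ndufs3 (0.38), Ndufs7 (0.056), Ndufv1 (0.39), Ndufv3 (0.38), Sdha (0.19), Uqcr10 (0.46), Uqcr11 (0.47) and Uqcrc2 (0.15). With the epididymis and sperm covariate 1135 genes were called, among them 1 subunit gene higher and 1 lower, 1 in complex I, 1 in IV and 0 in II, III and V, with 1 factor of complex I, 1 of IV and V, 1 gene of mitochondrial structure and 2 regulators. Without chow arrays 1 and 2, 15 were called higher and 3 in complex V, with 6 factors of II and III, 10 of IV and V and 9 genes of mitochondrial structure, and the ratios of Cox6a2 to Cox6a1 (1.83) and Cox8b to Cox8a (1.95) missed the threshold (adjusted exact permutation p = 0.0595, the smallest possible there with 3 pairs tied at the lowest p). Ratios not past the threshold changed sign there in 5 pairs, to between 0.01 and 0.12, and with the mean of probe sets in Cox8c to Cox8a and Atp5g2 to Atp5g3 (0.165 each). Array weights gave 15 higher, 3 in complex V, 6 factors of II and III, 8 genes of mitochondrial structure and 8 regulators. Complex V had 2 called genes with the floor at the 20th percentile, on the log2(value + 16) scale, with the robust prior and among bright genes only; that last choice also left 2 in complex IV and 3 regulators, with fewer genes entering. The mean of a gene's probe sets gave 7 lower, 1 in complex II, 1 in III, 1 for cytochrome c and Sdha at 0.075. No trend in the variance prior gave 5 higher, 1 in complex II, 1 in III and 0 in V. A replicate block, although equal numbers did not pair the mice (0 of 5 numbers correlated best with their own), gave 5 higher, 7 lower, 7 in complex I, 1 in II, 1 in III, 0 in V and 3 genes of mitochondrial structure. With 1 array left out, 4 to 10 were higher and 6 to 13 lower, with 5 to 11 in complex I, 1 to 2 in II, 1 to 2 in III, 0 to 3 in V and 3 to 7 genes of mitochondrial structure. Ratios then ran from 1.62 to 1.96 for Cox6a2 to Cox6a1, 1.85 to 3.38 for Cox8b to Cox8a, 1.03 to 1.68 for Cox7a1 to Cox7a2, 0.64 to 1.23 for Ndufa4l2 to Ndufa4 and -0.30 to -0.13 for Atp5g2 to Atp5g3. The block, covariate, weights and variance priors were not run for the ratios, which come from no fitted model. Dim probe sets such as Cox7b2 lie near the floor, where a log2 change depends on the floor, and 5 arrays per group bound how small a change could be called.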
